A study of Homo sapiens with 6 samples.

Results

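The EGFR family was examined as 9 transcripts, the 3 receptors EGFR, ERBB2 and ERBB3 and the 6 ligands AREG, EREG, HBEGF, TGFA, BTC and EPGN. They were chosen by name and matched to the gene identifiers of the count table, which lists 63677 genes in 6 samples. The samples were UWB1.289 cells, an established human ovarian cancer cell line that lacks functional BRCA1 (the labels give its genotype as WT). The cells received 4 µM Olaparib, an inhibitor of the DNA repair enzyme PARP1 (3 samples), or the solvent DMSO (3 samples), for 24 h. A concentration of 10 µM stands in the series' design text, whereas the sample titles and the methods give 4 µM. Both groups were grown in the same mixture of RPMI and mammary epithelial growth medium with its supplements, and fresh medium was given together with the drug or solvent. Such supplements usually contain EGF, and the labels do not list them. There was 1 cell line, 1 dose and 1 time point, with 3 culture dishes per condition. The methods call the 3 replicates of a readout independent and do not say in what respect. The p values therefore weigh the group difference against the variation between these samples, and are not extended beyond them.

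EGFR and its relatives are cell surface tyrosine kinases that act as pairs. The ligands are made as membrane-anchored precursors and are cut loose by metalloproteases, after which they can act on the producing cell or on its neighbors. Binding brings receptors together, and the signal passes through adaptor proteins to the ERK and PI3K-AKT cascades. ERBB2 has no known soluble ligand, ERBB3 has a weak kinase and binds neuregulins, and all 6 ligands listed above bind EGFR. Ovarian carcinoma cells commonly express several of these genes.

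Total counts lay between 35360458 and 39640775 per sample. Epithelial markers were present in every sample (EPCAM, CDH1, KRT7, KRT8, KRT18 and KRT19, summed level 12471 to 13273 CPM, a count scaled to library size). Of the Mullerian and ovarian carcinoma markers, PAX8, SOX17, MSLN and MUC16 were present, and WT1 had at most 2 counts in any sample. Among fibroblast, immune and endothelial markers, COL3A1, DCN, LUM, PDGFRB, CD3E, CD79A and PECAM1 had at most 3 counts in any sample. The other markers on these lists were detected. The summed level was 43.9 to 49.4 CPM for the fibroblast list, mostly COL1A2 with some COL1A1, and 1.57 to 2.49 CPM for the immune list (PTPRC, CD68 and LYZ). For the endothelial list it was 44.3 to 48.2 CPM, mostly the cadherin CDH5 with 40.8 ± 0.755 CPM after Olaparib and 42.9 ± 1.70 CPM after DMSO (SD, n = 3 each), with KDR and VWF below 3 CPM. VWF rose from 1.12 ± 0.0523 to 1.80 ± 0.0848 CPM (log2 fold change 0.68, Benjamini-Hochberg adjusted p = 0.0106 in edgeR and 0.0710 in DESeq2). PAX8 also rose, from 305 ± 8.67 to 328 ± 5.78 CPM (log2 fold change 0.10, edgeR adjusted p = 0.0399). The PAX8 call was lost with upper quartile scaling (edgeR adjusted p = 0.0604), without Olaparib replicate 2 (0.155) or 3 (0.105), and without DMSO replicate 1 (0.206), 2 (0.0609) or 3 (0.111). Of the 6 epithelial markers, edgeR called 0, DESeq2 1 and limma voom 2 at an adjusted p under 0.05. Over all genes the shares were 3.36%, 2.39% and 3.09%. At an unadjusted p under 0.05 in edgeR there were 4 epithelial markers, all higher, beside 14.8% of all genes. The part of these markers in the results below was not tested. In bulk samples, fewer cells that express a gene and less of its RNA per cell cannot be told apart.

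None of the 9 family transcripts was called different after Olaparib. Exactly 8 members exceeded 10 counts over all samples and were tested, and 0 passed the threshold of 0.05 on the Benjamini-Hochberg adjusted p (quasi-likelihood test of edgeR), against 3.36% of all 21729 genes tested (730 genes). At an unadjusted p under 0.05 the count was also 0, against 14.8% of all genes. The Wald test of DESeq2 called 0 of 7 members and gave EREG no adjusted p. Over all 21729 genes it called 520 (2.39%), a share that counts genes without an adjusted p as not called. Limma voom called 0 of 8, against 3.09% (671). In no member were the 3 Olaparib samples all above or all below the 3 DMSO samples, a separation found in 19.3% of the genes tested. The median log2 fold change of the 8 members was 0.041, and over all genes it was -0.0042. The adjusted p values of the members ran from 0.475 to 0.897. With so few members, a count of 0 is close to what the share over all genes gives.

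What the data show for the members is therefore mostly a level and a bound on its change. For 5 of the 8 transcripts, EGFR, ERBB2, ERBB3, HBEGF and TGFA, the 95% interval of the log2 fold change lay within ±0.26, a 1.2-fold change in either direction. That threshold stands in the study's account of its results, and its methods state a larger one. For AREG, BTC and EREG, the less abundant ones, the interval reached past that threshold on 1 side, below for AREG and above for BTC and EREG. A fall of that size in AREG, or a rise of that size in BTC or EREG, could not be told from none at this depth.

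**Figure D1:**
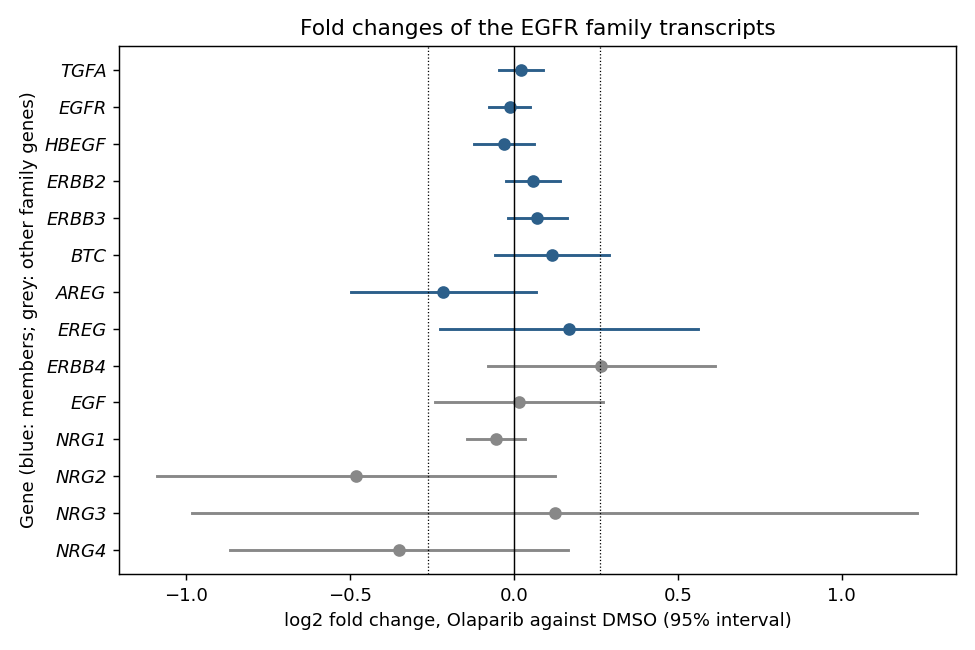
Log2 fold change of Olaparib against DMSO with its 95% interval for the 8 tested members (blue) and for ERBB4, EGF and the neuregulins (grey), from the edgeR fit to 3 samples per group. The dotted lines mark a 1.2-fold change in either direction. Every interval includes 0, and those of TGFA, EGFR, HBEGF, ERBB2 and ERBB3 end inside the dotted lines, as does that of NRG1.

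Among the receptors, EGFR (ENSG00000146648, chromosome 7, 55019017 to 55211628 on GRCh38, plus strand), the receptor of all 6 ligands, had the most reads. Its level was 304, 294 and 287 CPM in the Olaparib samples and 301, 305 and 287 CPM in the DMSO samples. Both groups span nearly the same range, from about the same lowest to about the same highest value. The log2 fold change was -0.013 (standard error, SE, 0.030, 95% interval -0.074 to 0.048, edgeR adjusted p = 0.897), which corresponds to a change between -5.03% and 3.40%. This was the narrowest interval of the family, for the gene with the most reads (66531 over the 6 samples). The sign was not settled. Without Olaparib replicate 3 the log2 fold change was 0.0057, and without DMSO replicate 2 it was 0.0041.

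ERBB2 (ENSG00000141736, chromosome 17, 39687914 to 39730426, plus strand) encodes the receptor that serves as the preferred partner of the others. It had 68.1, 70.7 and 72.4 CPM after Olaparib and 64.8, 69.0 and 69.0 CPM after DMSO. The Olaparib samples reached the higher values, and the lowest of them lay below the upper 2 DMSO samples. This gave a log2 fold change of 0.059 (SE 0.040, 95% interval -0.023 to 0.14, edgeR adjusted p = 0.546). MIEN1 and PGAP3 overlap 6.93% of its exonic bases on the other strand, and the strand setting of the counting is not given in the sources used here.

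ERBB3 (ENSG00000065361, chromosome 12, 56076799 to 56103505, plus strand) encodes the neuregulin receptor. Its values were 44.2, 42.7 and 43.4 CPM after Olaparib and 39.1, 41.7 and 43.0 CPM after DMSO. The groups overlapped by a single DMSO sample, replicate 3, which lay above the lowest Olaparib sample. Its log2 fold change of 0.072 (SE 0.044, 95% interval -0.017 to 0.16) had the lowest adjusted p of the family in edgeR, 0.475. Over the alternative settings and with each sample left out in turn, the adjusted p of ERBB3 stayed between 0.347 and 0.807 (edgeR, DESeq2 and limma).

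Levels of different genes were compared per length, as CPM divided by the kilobases of merged exons. On that scale EGFR had 18.7 ± 0.575 CPM per kb in DMSO (SD, n = 3), ERBB2 6.55 ± 0.237 and ERBB3 3.53 ± 0.168. EGFR made up 63.5% to 66.3% of the summed level of the 3 receptors in DMSO and 62.6% to 64.8% after Olaparib, with overlapping ranges. The values depend on which length is used. With the longest coding transcript in place of the merged exons, EGFR, ERBB2 and ERBB3 had 30.1, 14.1 and 7.35 CPM per kb in DMSO, and the mean share of EGFR was 58.3% in place of 65.0%. The order of the receptors was the same with both lengths.

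Among the ligands, TGFA (ENSG00000163235, chromosome 2, 70447284 to 70554193, minus strand), which encodes TGF-alpha, was the most abundant. It had 151, 140 and 147 CPM after Olaparib and 144, 145 and 143 CPM after DMSO. The DMSO samples were tightly grouped, and the Olaparib samples lay on both sides of them. The log2 fold change was 0.023 (SE 0.033, 95% interval -0.044 to 0.090, edgeR adjusted p = 0.819), a change between -3.01% and 6.44%. Without Olaparib replicate 1 it was -6.1e-04. Per length, TGFA was the highest of all 9 family genes, with 29.3 ± 0.181 CPM per kb in DMSO, above 92.6% of the 20867 tested genes that have a length.

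HBEGF (ENSG00000113070, chromosome 5, 140332843 to 140346603, minus strand) encodes heparin-binding EGF-like growth factor, which also binds ERBB4. Its values were 31.7, 31.7 and 30.9 CPM after Olaparib and 31.0, 32.0 and 33.2 CPM after DMSO. The Olaparib samples fell within the lower part of the DMSO range or just under it. For HBEGF the log2 fold change was -0.030 (SE 0.045, 95% interval -0.12 to 0.061, edgeR adjusted p = 0.828). Its level per length was 10.7 ± 0.372 CPM per kb in DMSO.

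The other 4 ligand genes, all below HBEGF in level per length, EPGN, EREG, AREG and BTC, lie in that order within 486 kb of chromosome 4 (74308470 to 74794523). Together they made up 8.34% to 8.69% of the summed ligand level per length in DMSO and 8.37% to 8.49% after Olaparib. TGFA alone made up 66.1% to 67.7% in DMSO and 66.8% to 68.1% after Olaparib, so the makeup of the ligand pool was nearly the same in all 6 samples.

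BTC (ENSG00000174808, 74744759 to 74794523, minus strand) encodes betacellulin. It had 6.68, 5.92 and 5.87 CPM after Olaparib and 5.70, 5.32 and 6.002 CPM after DMSO. Olaparib replicate 1 was the highest sample, and the other two lay within the DMSO range. BTC had a log2 fold change of 0.12 (SE 0.086, 95% interval -0.057 to 0.29, edgeR adjusted p = 0.583).

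AREG (ENSG00000109321, 74445136 to 74455005, plus strand) encodes amphiregulin. It had 67, 70 and 78 counts (1.81, 1.92 and 2.07 CPM) after Olaparib and 73, 92 and 90 counts (2.04, 2.41 and 2.28 CPM) after DMSO. The groups met only where Olaparib replicate 3 passed DMSO replicate 1. The log2 fold change of -0.22 was the most negative of the tested members, with a SE of 0.14 and a 95% interval of -0.50 to 0.067 (edgeR adjusted p = 0.510). It lay between -0.27 and -0.16 over all alternative settings and with each sample left out.

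EREG (ENSG00000124882, 74365145 to 74388749, plus strand) encodes epiregulin. Its counts were 42, 34 and 54 after Olaparib and 41, 41 and 36 after DMSO, at 0.932 to 1.43 CPM and 0.912 to 1.15 CPM. The Olaparib samples were the more scattered, with a coefficient of variation of 21.6% against 11.5%. The log2 fold change of 0.17 (SE 0.19, 95% interval -0.23 to 0.56, edgeR adjusted p = 0.762) was -0.011 without Olaparib replicate 3.

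EPGN (ENSG00000182585, 74308470 to 74316789, plus strand) encodes epigen. It had 1, 2 and 1 counts after Olaparib and 2, 2 and 2 counts after DMSO, 10 in all. A gene with at most 3 counts in each sample was treated as being at the floor, so no fold change is given. Its total did not exceed the minimum of 10 for testing.

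**Figure D2:**
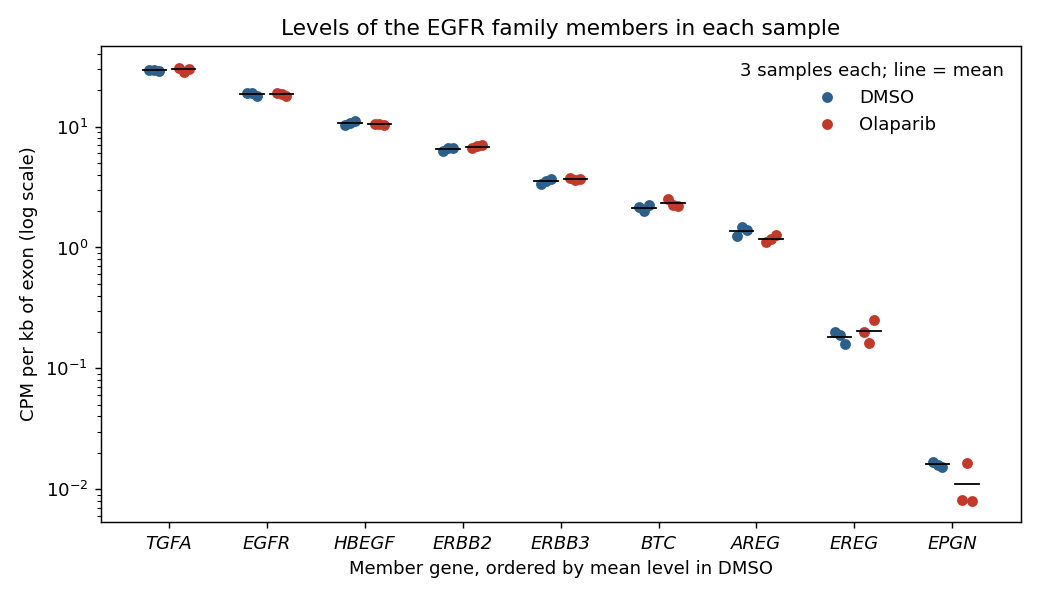
Level of each member per sample as CPM per kb of merged exons, on a log axis, ordered by the mean in DMSO (blue, 3 samples) with Olaparib beside it (red, 3 samples). Lines mark the means. The levels run from 29.3 CPM per kb for TGFA down to 0.183 for EREG and to 1 or 2 counts per sample for EPGN, and the groups overlap in every gene.

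In the order of levels per length in DMSO, TGFA was followed by EGFR, HBEGF, ERBB2, ERBB3, BTC, AREG, EREG and EPGN. The ranges over the 3 samples of neighboring genes did not overlap, in DMSO or after Olaparib. With the longest coding transcript as the length, ERBB2 (14.1 CPM per kb in DMSO) moved ahead of HBEGF (13.6), and in DMSO the ranges of these 2 genes overlapped. The order of the other members was the same with both lengths.

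The start sites of the ligand genes differ in base composition. The stretches below, from 250 bases before to 50 bases after the start of a transcript, are given for the most abundant ligand (TGFA), for a low one (AREG) and for the one at the floor (EPGN). They were taken from RefSeq on GRCh38.p14 and are written 5′ to 3′ on the strand of the gene. Capitals mark the motifs TATAAA, TGACGTCA (the cyclic AMP response element) and GGGCGG (a GC box), searched on both strands and not overlapping one another here.
TGFA promoter, chr2:70553777-70554076, minus strand: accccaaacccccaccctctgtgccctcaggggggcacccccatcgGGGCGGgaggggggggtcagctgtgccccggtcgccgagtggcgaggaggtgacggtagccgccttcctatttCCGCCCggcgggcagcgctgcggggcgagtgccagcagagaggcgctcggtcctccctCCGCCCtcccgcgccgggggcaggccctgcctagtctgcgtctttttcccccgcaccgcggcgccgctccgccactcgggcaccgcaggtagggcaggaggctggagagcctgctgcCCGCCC
AREG promoter, chr4:74444886-74445185, plus strand: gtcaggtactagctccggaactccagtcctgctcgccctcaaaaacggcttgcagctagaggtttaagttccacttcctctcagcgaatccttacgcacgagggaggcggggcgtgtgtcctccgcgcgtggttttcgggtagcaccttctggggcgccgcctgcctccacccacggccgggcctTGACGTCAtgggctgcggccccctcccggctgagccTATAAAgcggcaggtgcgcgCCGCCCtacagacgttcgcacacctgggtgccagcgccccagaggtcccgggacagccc
EPGN promoter, chr4:74308220-74308519, plus strand: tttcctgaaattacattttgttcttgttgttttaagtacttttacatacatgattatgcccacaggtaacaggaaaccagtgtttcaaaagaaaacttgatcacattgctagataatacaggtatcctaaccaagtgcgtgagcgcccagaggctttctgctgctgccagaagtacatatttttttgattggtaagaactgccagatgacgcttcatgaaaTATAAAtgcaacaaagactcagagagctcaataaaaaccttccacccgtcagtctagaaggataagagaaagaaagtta

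The TGFA stretch held 30 CG pairs and 4 GC boxes at 75.3% G and C. The AREG stretch held 27 CG pairs at 66.3% G and C, with TATAAA from -29 to -24 and the cyclic AMP response element from -65 to -58, counting the start base as 0. It also held 1 GC box, from -9 to -4. The EPGN stretch held 4 CG pairs at 37.7% G and C, with TATAAA at the same place as in AREG. Over 35116 RefSeq promoter stretches of this length, 11.5% held TATAAA, 1.85% held TGACGTCA and 45.0% held GGGCGG. Of the 9 members, 8 had an entry, and ERBB3 had none. EGFR and HBEGF resembled TGFA, with 75.3% and 75.0% G and C, 33 and 38 CG pairs and 3 and 5 GC boxes. ERBB2 had 60.7% G and C and 24 CG pairs with none of the 3 motifs. EREG (57.7%, 12 CG pairs) held TATAAA, and BTC (63.0%, 12 CG pairs) held 1 GC box. The TGFA start used by RefSeq lies 367 bases inside the annotated gene start. These matches are descriptions of the letters only.

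The remaining genes of the family were measured as a comparison. ERBB4, EGF and the neuregulin genes NRG1 to NRG4 were all tested, and edgeR called 0 of 6 at the same threshold (0 at an unadjusted p under 0.05, 0 of 6 by limma voom, and 0 of 3 by DESeq2, which gave NRG2, NRG3 and NRG4 no adjusted p). NRG1, a ligand of ERBB3 and ERBB4, was the only one of the 6 above 3 CPM. It had 32.6, 34.0 and 33.6 CPM after Olaparib and 34.8, 34.8 and 34.3 CPM after DMSO. All Olaparib samples lay below all DMSO samples, with a log2 fold change of only -0.053 (SE 0.043, edgeR adjusted p = 0.630). EGF had 2.56 ± 0.129 CPM after Olaparib and 2.53 ± 0.215 CPM after DMSO (n = 3 each), and ERBB4, the remaining receptor, 1.48 ± 0.129 and 1.23 ± 0.164 CPM. NRG2, NRG3 and NRG4 had 102, 29 and 129 counts over all 6 samples, and FBXO22 overlaps 38.2% of the exonic bases of NRG4. ERBB4 had a log2 fold change of 0.27 (interval -0.079 to 0.61) and EGF one of 0.015 (interval -0.24 to 0.27). The intervals of ERBB4, EGF, NRG2, NRG3 and NRG4 reached past a 1.2-fold change in at least 1 direction. A change of that size in such a direction could not be told from none.

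Genes that act before and after the receptors were read from the same fit. In the list for ligand release, 3 of 14 genes were higher and 0 lower by the same edgeR test (background 2.15% higher and 1.21% lower over all genes), with a median log2 fold change of 0.015. DESeq2 called 2 of its genes and limma voom 3. This list too was chosen with earlier results of these data known, and its difference from the background was not tested. TIMP3, an inhibitor of metalloproteases that include the ligand-cutting ADAM17, had 14.1, 13.8 and 13.9 CPM after Olaparib and 9.80, 11.9 and 10.8 CPM after DMSO. All 3 Olaparib samples were above all 3 DMSO samples. Its log2 fold change was 0.36 (SE 0.062, adjusted p = 3.2e-04), and 0.30 to 0.43 with each sample left out.

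ADAM10, the metalloprotease known to release EGF and betacellulin, rose from 145 ± 3.21 to 158 ± 5.83 CPM, a log2 fold change of 0.12 (SE 0.033, edgeR adjusted p = 0.0271). That call was lost without Olaparib replicate 1 (adjusted p = 0.105), DMSO replicate 2 (0.154) or DMSO replicate 3 (0.163, all from edgeR). FRMD8, which binds iRhom proteins and stabilizes the ADAM17 complex, rose from 39.3 ± 1.13 to 43.6 ± 0.326 CPM (log2 fold change 0.15, edgeR adjusted p = 0.0401). Its adjusted p was 0.0583 with DESeq2 and 0.0602 with upper quartile scaling in edgeR. It was 0.0829 and 0.177 without Olaparib replicate 2 or 3, and 0.122 and 0.196 without DMSO replicate 2 or 3. Without DMSO replicate 2 or replicate 3, 1 gene of the list was called in place of 3. ADAM17 itself, which releases AREG, EREG, TGFA and HBEGF, had 121 ± 5.45 CPM after Olaparib and 117 ± 1.12 CPM after DMSO (log2 fold change 0.046, edgeR adjusted p = 0.604). Its partners RHBDF1 and RHBDF2 had log2 fold changes of -0.16 and 0.078 (edgeR adjusted p = 0.134 and 0.366). ADAM12 had the largest fold change of the list, 0.59 on the log2 scale, and was not called (edgeR adjusted p = 0.148). It had 1.02 ± 0.223 CPM after Olaparib and 0.681 ± 0.0732 CPM after DMSO. At an unadjusted p under 0.05 in edgeR there were 5 of the 14 genes, 4 higher and 1 lower, beside 14.8% of all genes.

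The list of adaptors and kinases downstream of the receptors held 30 genes, of which 1 was higher and 0 lower at an adjusted p under 0.05, a share of 3.33% against 3.36% over all genes. At an unadjusted p under 0.05 in edgeR there were 6 of the 30, 5 higher and 1 lower, beside 14.8% of all genes. The groups did not overlap in 6 of the 30, all higher, beside 19.3% of all genes in either direction. Neither difference from the background was tested. The gene called at the adjusted threshold was MAP2K2, a kinase that activates ERK. It had 101, 110 and 101 CPM after Olaparib and 90.4, 93.4 and 95.2 CPM after DMSO, a log2 fold change of 0.16 (SE 0.038, edgeR adjusted p = 0.0135). The groups did not overlap. The call was lost without Olaparib replicate 2 (adjusted p = 0.133), DMSO replicate 1 (0.0514) or DMSO replicate 2 (0.0640, all from edgeR). GRB2, the adaptor that links the receptors to the ERK cascade, had a log2 fold change of 0.026 (edgeR adjusted p = 0.803). PIK3R2 could not be judged at 0.0524 to 0.133 CPM, and another annotated gene covers 76.4% of its exonic bases.

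Among 18 negative regulators of the receptors, edgeR called 0, 3 passed an unadjusted p of 0.05 (14.8% of all genes did), and DESeq2 and limma voom called 0. ERRFI1, an inhibitor that is itself induced by EGFR signaling, had 172 ± 6.68 CPM after Olaparib and 175 ± 3.33 CPM after DMSO (log2 fold change -0.021, edgeR adjusted p = 0.832). CBL, the ubiquitin ligase that marks EGFR for degradation, had a log2 fold change of 0.041 and LRIG1 one of 0.011 (edgeR adjusted p = 0.639 and 0.949), with 37.9% of the exonic bases of LRIG1 overlapped by other genes. Of 13 genes for receptor endocytosis and sorting, 0 passed in edgeR, 2 at an unadjusted p, again against 14.8% of all genes, and 0 in DESeq2 and limma voom, with fold changes between -0.042 and 0.082 on the log2 scale.

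**Figure D3:**
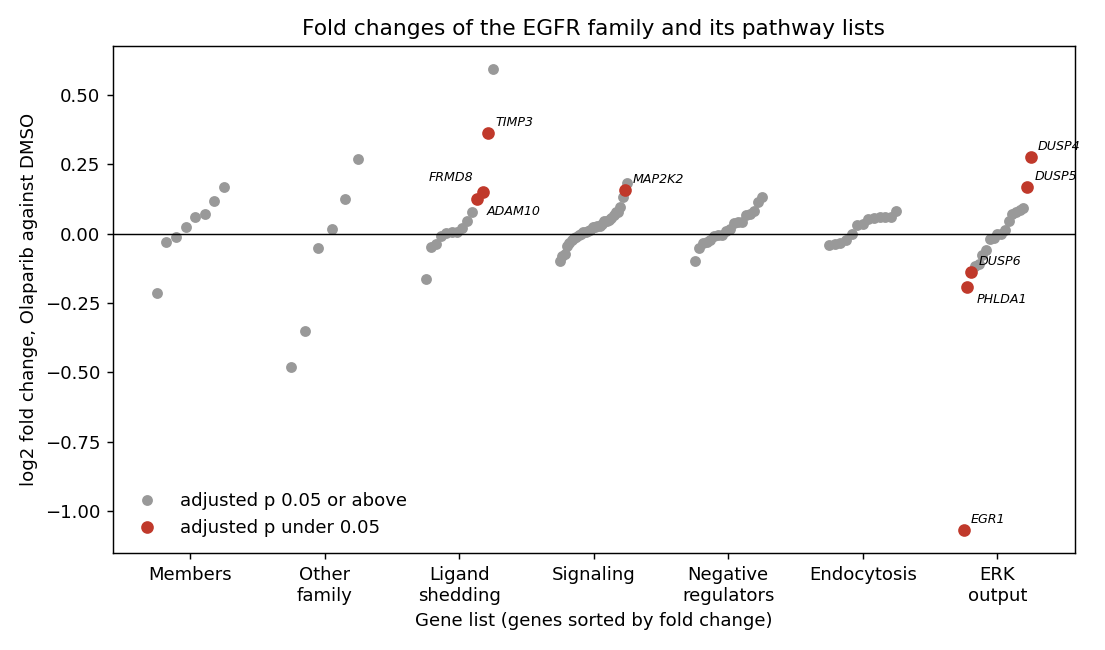
Log2 fold change of Olaparib against DMSO for each tested gene of the family and of the 6 comparison lists, sorted within each list. Red points are genes called by edgeR (adjusted p under 0.05). No family gene is red, and the largest number of red points in a list is 5, among the 19 transcripts induced by ERK signaling.

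Of 19 transcripts induced by EGFR and ERK signaling, 5 were called (26.3%, beside 3.36% over all genes), in both directions. The list was chosen with earlier results of these data known, so the share is a description and its difference from the background was not tested. Of those called by edgeR, 2 were higher and 3 lower, and the median log2 fold change of the list was -0.0021. At an unadjusted p under 0.05 in edgeR there were 10 of the 19, 3 higher and 7 lower, beside 14.8% of all genes. In 11 of the 19 the groups did not overlap, beside 19.3% of all genes. Both counts include the called genes, and their difference from the background was not tested. DUSP4, a nuclear phosphatase that inactivates ERK, had 55.5, 53.7 and 56.0 CPM after Olaparib and 45.8, 45.3 and 45.3 CPM after DMSO (log2 fold change 0.28, SE 0.041, adjusted p = 3.5e-05). DUSP5, another nuclear ERK phosphatase, rose from 95.6 ± 4.03 to 107 ± 1.28 CPM (log2 fold change 0.17, edgeR adjusted p = 0.00537). In both genes every Olaparib sample was above every DMSO sample.

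The 3 that fell were EGR1, PHLDA1 and DUSP6. EGR1, an immediate early transcription factor, had 3.14, 2.25 and 2.39 CPM after Olaparib and 5.31, 5.27 and 5.72 CPM after DMSO (log2 fold change -1.07, edgeR adjusted p = 1.2e-07). PHLDA1, a growth factor-induced gene, fell from 84.8 ± 2.24 to 74.3 ± 1.37 CPM (log2 fold change -0.19, edgeR adjusted p = 0.00201). DUSP6, the cytoplasmic ERK phosphatase, fell from 124 ± 5.42 to 113 ± 1.37 CPM (log2 fold change -0.14, edgeR adjusted p = 0.0185). The call of DUSP6 was lost without DMSO replicate 2 (adjusted p = 0.0794) or replicate 3 (0.192, both from edgeR), and an annotated gene on the other strand covers 28.6% of its exonic bases. ETV5 and SPRY2, uncalled ERK targets chosen after their values were seen, had log2 fold changes of -4.2e-04 and -0.0021 (edgeR adjusted p = 0.996 and 0.989). Thus DUSP4 and DUSP6, phosphatases of the same family, lay on opposite sides of 0.

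**Figure D4:**
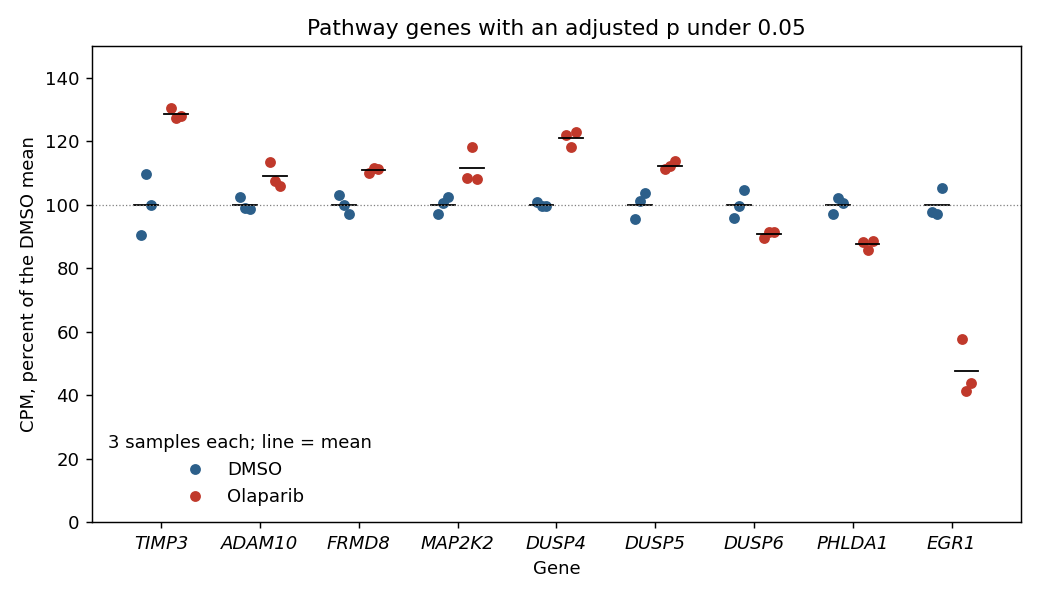
CPM of the 9 pathway genes with an adjusted p under 0.05, per sample, as a percentage of the mean of the 3 DMSO samples (blue, DMSO; red, Olaparib; lines, means of 3 samples). The groups are separate in all 9 genes, as in 19.3% of all genes tested. These 9 were chosen by their p in the same samples, so their separation adds no support to the calls. EGR1 stands lowest after Olaparib, and the other 8 changes reach at most 0.36 on the log2 scale (TIMP3).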

How the data were processed

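RNA from 6 samples of UWB1.289 cells, 3 with Olaparib and 3 with DMSO, was sequenced as stranded poly(A)-enriched libraries. The authors deposited whole-number read counts per gene, not normalized. According to the methods, adapters were trimmed with Trimmomatic, reads were mapped to GRCh38 with STAR, PCR duplicates were identified with Picard, and reads were assigned to genes with featureCounts. Whether duplicates were removed and which strand setting was used are not given in the sources used here, so overlapping and antisense genes cannot be told apart with certainty. Per the labels, each sample was placed in its group by its title, and the names in the count table were matched through the sample descriptions.

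Genes with more than 10 counts in total were kept, normalized by TMM and tested by quasi-likelihood in edgeR, with group as the only term. The study names DESeq2 for its differential expression test, and a figure legend and another methods section name limma for the transcripts. DESeq2 and limma voom are alternatives here. DESeq2 leaves some genes of low count without an adjusted p, and these were kept out of its counts of family genes. Its share over all genes, 2.39%, is of all 21729, those without an adjusted p included. P values were adjusted by Benjamini-Hochberg over all 21729 genes. Intervals are 95% intervals from that fit. CPM values use TMM library sizes. Symbols, coordinates and exon lengths came from GENCODE 44 on GRCh38, which held 81.9% of the identifiers listed and 96.0% of those tested. R 4.3.3, edgeR 4.0.16, limma 3.58.1 and DESeq2 1.42.0 were used. The fitting code was tested on simulated data. Replicates of a group differed by more than sampling noise (chi-square per degree of freedom 1.81 to 4.11, 15525 genes), and all 6 samples were counted separately. That check cannot show whether the samples came from independent cultures.

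The members and gene lists were chosen with earlier results of these data known. The text names all members, the other family genes and up to 5 called genes per list, called markers included. Genes beyond that rule (ADAM12, ADAM17, RHBDF1, RHBDF2, GRB2, PIK3R2, ERRFI1, CBL, LRIG1, ETV5, SPRY2 and the uncalled markers) were chosen after their values were seen. Genes resembling a called member in pattern were to be named, and no member was called. Alternatives were DESeq2, limma voom, size factors, upper quartile scaling, other filters, a replicate block, another gene length and leaving out each sample in turn. Proteomics, phosphoproteomics and thermal proteome profiling data were not analysed here.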

Additional observations from a re-analysis of the deposited data

How the results depend on the processing

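Under all 13 alternatives, 0 members were called higher, lower or past the 1.2-fold threshold. DESeq2 gave EREG no adjusted p, so that alternative covers 7 of the 8 members. The lowest adjusted p of a member in any of them was 0.313 (ERBB2 in edgeR, without Olaparib replicate 1), and at an unadjusted p under 0.05 there was 1 member, ERBB3, without DMSO replicate 3. The direction held for ERBB2, ERBB3, AREG, HBEGF and BTC under all 13 alternatives. It reversed with a sample left out for EGFR (range -0.040 to 0.0057, with 0.0057 without Olaparib replicate 3 and 0.0041 without DMSO replicate 2), EREG (-0.011 to 0.31), TGFA (-6.1e-04 to 0.052), EGF (-0.048 to 0.076, with -0.025 without Olaparib replicate 1) and NRG3 (-0.18 to 0.38, with -0.0048 without DMSO replicate 3), and the cause was not tested.

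With a sample left out, the number of called genes ran from 1 to 4 in the list for ligand release, from 0 to 2 among adaptors and kinases, from 0 to 1 among negative regulators and from 4 to 6 among ERK-induced transcripts. Without a filter on low counts, 2 adaptors or kinases and 1 negative regulator were called, and with upper quartile scaling 1 negative regulator. With the replicate number as a block, 3 adaptors or kinases, 2 negative regulators and 1322 genes in all were called, against 1, 0 and 730. The replicate numbers were not treated as pairs, because same-numbered samples did not all deviate together. Their correlations were -0.153, 0.185 and -0.214 over 13121 genes for replicates 1, 2 and 3. Not every sample correlated best with its own number. The highest correlation was 0.371, between Olaparib replicate 3 and DMSO replicate 1, and its source was not tested. No member was called with the block. Over all genes, leaving out a sample gave 398 to 870 calls, and upper quartile scaling gave 395 higher and 304 lower genes in place of 467 and 263.

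With the longest coding transcript as the length, levels in DMSO were 30.1 (EGFR), 14.1 (ERBB2), 7.35 (ERBB3), 34.97 (TGFA), 13.6 (HBEGF), 1.82 (AREG), 0.226 (EREG) and 0.0198 (EPGN) CPM per kb, and EGFR made up 58.3% of the receptor level. Depth limits AREG, EREG, BTC and EPGN most, and intervals do not cover PCR duplicates.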
